A study of Mus musculus with 9 samples.

Results

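The genes Ms4a4b, Ms4a4c and Ms4a6b encode the MS4A proteins that are known from T cells. They were picked by gene symbol, as 3 of the 24060 genes in the expression table, and all 3 were among the 11330 genes that passed the filter of a maximum above 1 TPM (a level scaled to transcript length and to the library total). MS4A proteins cross the membrane several times and have short ends inside the cell. The family takes its name from CD20, the B cell protein encoded by Ms4a1, and includes the beta chain of the high affinity IgE receptor. MS4A4B sits at the surface of T cells, was found as a gene of Th1 cells, associates with the costimulatory receptor GITR, and has been described as a brake on T cell proliferation. Ms4a4c and the Ms4a6 genes are also transcribed in cells of the myeloid lineage.

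The 9 RNA-seq libraries came from activated CD8 T cells of the clones R7-II, R7-I and R7-III, with 3 biological replicates per clone. These are transnuclear BALB/c lines that keep Rag2 (Rag2+/+ CD90.2+), each made from the nucleus of 1 CD8 T cell that recognised the Toxoplasma gondii peptide ROP7, so that each clone is 1 T cell receptor and 1 mouse line. In every group the splenocytes stayed overnight in medium with IL-2 (10 ng/ml) and the ROP7 peptide (10 µM), before live CD3+ CD8+ cells that bound the ROP7 tetramer were sorted. The study ranks the clones by affinity for the peptide in the order R7-I, R7-III, R7-II. Its affinity measurement in a membrane-anchored setting found little difference between R7-I and R7-III. In the same assay R7-I adhered more often than R7-III, and R7-II had a lower affinity than both. The comparison asks how activated cells of these receptors differ. All groups had received the peptide, and unstimulated cells were not analysed here, so no value below is a response to the peptide. Line, receptor and mouse background cannot be told apart, since 1 line stands for each receptor.

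The 3 genes lie close together on mouse chromosome 19 of GRCm38.p6, all on the plus strand, with Ms4a6c and Gm8369 between Ms4a4b and Ms4a6b. Ms4a4c spans chr19:11404717-11427246, Ms4a4b spans chr19:11443558-11463549 and Ms4a6b spans chr19:11518559-11530403. The principal transcripts of Ms4a4b and Ms4a4c have 7 exons, and those of Ms4a6b have 7 to 8. The 150 bases before each start site of the RefSeq promoter table are printed here because they separate the close pair from the third gene. Capitals mark runs of 8 or more aligned bases that Ms4a4b and Ms4a4c have in common. For Ms4a4c the table's start lies inside the gene span, at base 11407661. For Ms4a6b the GENCODE annotation begins the gene further upstream, at base 11516512, so the bases printed may lie inside that gene.
Ms4a4b, chr19:11443408-11443557, plus strand: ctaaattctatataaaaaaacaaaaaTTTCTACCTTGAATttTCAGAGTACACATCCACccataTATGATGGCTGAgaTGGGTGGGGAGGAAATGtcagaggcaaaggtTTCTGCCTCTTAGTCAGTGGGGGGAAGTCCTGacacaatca
Ms4a4c, chr19:11407511-11407660, plus strand: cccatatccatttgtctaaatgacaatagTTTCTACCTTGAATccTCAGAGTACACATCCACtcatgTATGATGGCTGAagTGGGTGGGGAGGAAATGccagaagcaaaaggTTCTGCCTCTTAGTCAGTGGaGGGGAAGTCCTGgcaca
Ms4a6b, chr19:11518409-11518558, plus strand: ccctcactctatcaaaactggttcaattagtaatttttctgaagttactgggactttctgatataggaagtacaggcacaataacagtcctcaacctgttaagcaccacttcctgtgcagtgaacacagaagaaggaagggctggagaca

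Over these 150 bases Ms4a4b and Ms4a4c were identical at 124 of 146 aligned bases (84.9%), against 52.9% for Ms4a4b and Ms4a6b and 55.4% for Ms4a4c and Ms4a6b. Identity of the close pair was 90.6% over the last 100 bases and fell to 75.3% over 250. Their coding sequences were alike to 91.7% (622 of 678 aligned bases), whereas those of Ms4a4b and Ms4a6b were alike to 57.5%. The nearest coding sequences to Ms4a6b were those of Ms4a6c, at 85.8%, and Ms4a6d, at 81.2%. Motifs were searched on both strands in the 250 bases before the start. The letters CACCC, which KLF factors are known to bind, occurred in all 3 promoters, and also in 52.0% of the 32851 mouse promoters of the table. CTTTGT was found once, in Ms4a6b, and in 16.5% of all promoters. The letters CTTTGA (13.8% of promoters), TGACGTCA (1.55%) and TGACTCA (4.46%), and the interferon-stimulated response element (2.98%), were in none of the 3 windows.

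The likeness of the sequences also limits how reads can be assigned. Windows of 100 bases, the length of the reads, were taken along the longest principal transcript of each gene. Of those of Ms4a4b 0.882% were identical to a window of another MS4A gene, and 1.72% of those of Ms4a4c were. No such window of Ms4a6b was identical to another MS4A gene, although 5.23% matched one with at most 2 mismatches. For Ms4a4b and Ms4a4c 2.99% and 5.11% did so. RSEM divides reads with several origins by estimate, and it used RefSeq genes, whereas these windows are of GENCODE transcripts. GENCODE ends Ms4a4b at base 11467055, beyond its RefSeq end, so its share may be too low for the genes that RSEM used. The shares count windows and not reads. Ms4a4b had 34.1 to 46.0 times the TPM of Ms4a4c in R7-II, so the level of Ms4a4c may be uncertain by more than its share of windows. How far reads of Ms4a4b enter the level of Ms4a4c was not tested.

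R7-II cells had the highest levels of all 3 genes. Ms4a4b was present at 2.02 times the R7-I mean, Ms4a4c at 1.58 times and Ms4a6b at 2.24 times, and against R7-III the ratios of mean TPM were 1.72, 1.72 and 2.10. For each gene every R7-II library lay above all 6 libraries of the other clones (exact two-sided permutation test, p = 0.0238 for each gene, the smallest p of 3 against 6 libraries). This pattern was frequent among the genes tested: R7-II lay above all others for 41.7% of them. R7-I and R7-III were close to each other, and the largest difference between them was that of Ms4a4b.

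Ms4a4b, the GITR partner, was the most abundant of the 3 genes and ranked 333 of 24060 by mean TPM. It was measured at 271.86, 302.03 and 301.86 TPM in R7-I, at 603.02, 525.07 and 643.18 TPM in R7-II, and at 334.76, 358.55 and 338.2 TPM in R7-III. The means were 292 ± 17.4 TPM in R7-I, 590 ± 60.1 in R7-II and 344 ± 12.9 in R7-III (SD, n = 3 each). The 3 clones did not overlap, in the order R7-II, R7-III, R7-I. In the limma fit over all genes, the difference of Ms4a4b between R7-II and R7-I was 1.01 on the log2(TPM + 1) scale (SE 0.0679, 95% interval 0.86 to 1.16, adjusted p = 6.37e-07). It was higher than in R7-III by 0.77 (0.62 to 0.92, adjusted p = 3.86e-06). For R7-III against R7-I it was 0.24 (0.09 to 0.39), with an adjusted p of 0.0347 in limma, which missed the threshold of 0.01. The exact permutation test gave p = 0.1 for it, the smallest that 3 against 3 libraries allow, and libraries of these clones did not overlap for 41.9% of all genes tested. Without R7-II replicate 2, which enters that comparison only through the shared estimate of spread, the same difference of 0.24 reached an adjusted p of 0.00837.

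Ms4a6b was the second in abundance, at rank 882. It stood at 130.39, 135.41 and 116.1 TPM in R7-I, at 288.11, 269.54 and 297.37 TPM in R7-II, and at 133.49, 144.74 and 129.08 TPM in R7-III. The R7-II libraries stood well apart, while R7-I and R7-III overlapped (means 127 ± 10.0, 285 ± 14.2 and 136 ± 8.08 TPM, SD, n = 3 each). The log2 difference was 1.16 from R7-I (95% interval 1.02 to 1.29, limma adjusted p = 1.38e-07) and 1.06 from R7-III (0.93 to 1.2, adjusted p = 2.48e-07). For R7-III against R7-I it was 0.09, with an interval of -0.04 to 0.23 and an adjusted p of 0.333.

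Ms4a4c, the close relative of Ms4a4b, was far less abundant and ranked 7488. It was found at 8.6, 10.51 and 8.47 TPM in R7-I, at 13.17, 11.41 and 18.87 TPM in R7-II, and at 7.23, 7.98 and 10.01 TPM in R7-III. The R7-II libraries were all highest, but replicate 2 of R7-II exceeded the highest R7-I library only slightly. Mean levels were 9.19 ± 1.14, 14.5 ± 3.90 and 8.41 ± 1.44 TPM (SD, n = 3 each), so the spread within R7-II was the widest. The log2 difference of R7-II was 0.58 from R7-I (SE 0.166, 95% interval 0.21 to 0.95, limma adjusted p = 0.00961) and 0.70 from R7-III (0.33 to 1.07, adjusted p = 0.00344). Against R7-I, R7-III differed by -0.12 (-0.49 to 0.25, adjusted p = 0.667). The call against R7-I lay just inside the threshold and held in 6 of 19 alternative settings, with adjusted p-values from 0.00361 to 0.150, and that against R7-III held in 13 of 19. Without R7-II replicate 3 the difference from R7-I was 0.39 (limma adjusted p = 0.0290), and leaving out any of the R7-I libraries, R7-II replicate 1, or R7-III replicate 1 or 2 also ended that call. The call against R7-III ended without R7-III replicate 1 (0.61, adjusted p = 0.0170) or replicate 2 (0.67, adjusted p = 0.0152).

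**Figure D1:**
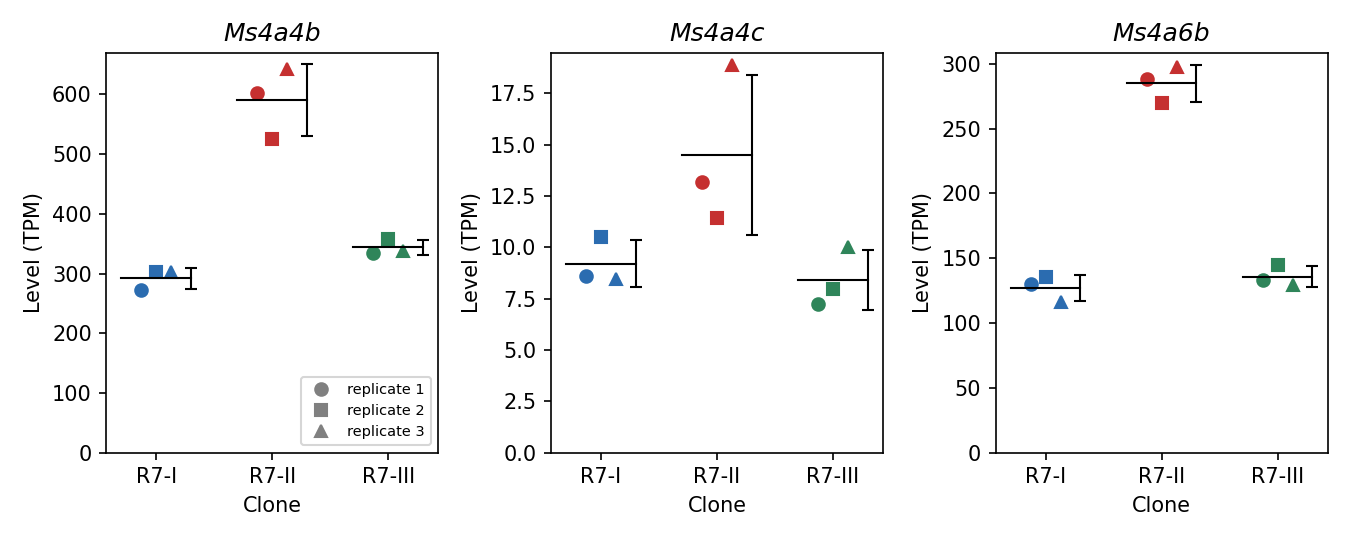
Levels of Ms4a4b, Ms4a4c and Ms4a6b (TPM, linear axes from 0) in the 9 libraries, by clone. Symbols are replicates, horizontal lines are means of 3 libraries and bars are 1 SD. R7-II lies above every other library in each panel, by the narrowest margin for Ms4a4c (11.41 against 10.51 TPM).

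These calls have to be read against the number of genes that differed. Against R7-I all 3 members were higher, where 56.1% of the genes tested passed the threshold, 40.6% as higher in R7-II and 15.5% as lower. Against R7-III all 3 were higher too, where 53.6% passed, 35.6% as higher and 18.0% as lower. For R7-III against R7-I none of the 3 passed in limma, beside 8.41% of all genes (6.96% higher and 1.45% lower), while 1 of the 3, Ms4a4b, had an unadjusted p under 0.05, as did 32.3% of all genes. By size, 6.04% of genes had a larger log2 difference from R7-I than Ms4a4b, 17.6% than Ms4a4c and 4.40% than Ms4a6b. Against R7-III these shares were 8.40%, 10.1% and 4.29%.

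The median gene was itself higher in R7-II in TPM, by 0.17 against R7-I and 0.12 against R7-III on the log2 scale. Relative to that median, Ms4a4b was higher by 0.84 and 0.65, Ms4a4c by 0.41 and 0.58, and Ms4a6b by 0.99 and 0.94. With libraries scaled by median-of-ratios factors, which takes the median gene to 0.01 and 0.00, the share of calls that were higher in R7-II went from 72.4% to 47.7% against R7-I and from 66.4% to 47.9% against R7-III. The calls of Ms4a4b and Ms4a6b were kept under that scaling, and those of Ms4a4c were not (limma adjusted p = 0.0458 and 0.0104).

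**Figure D2:**
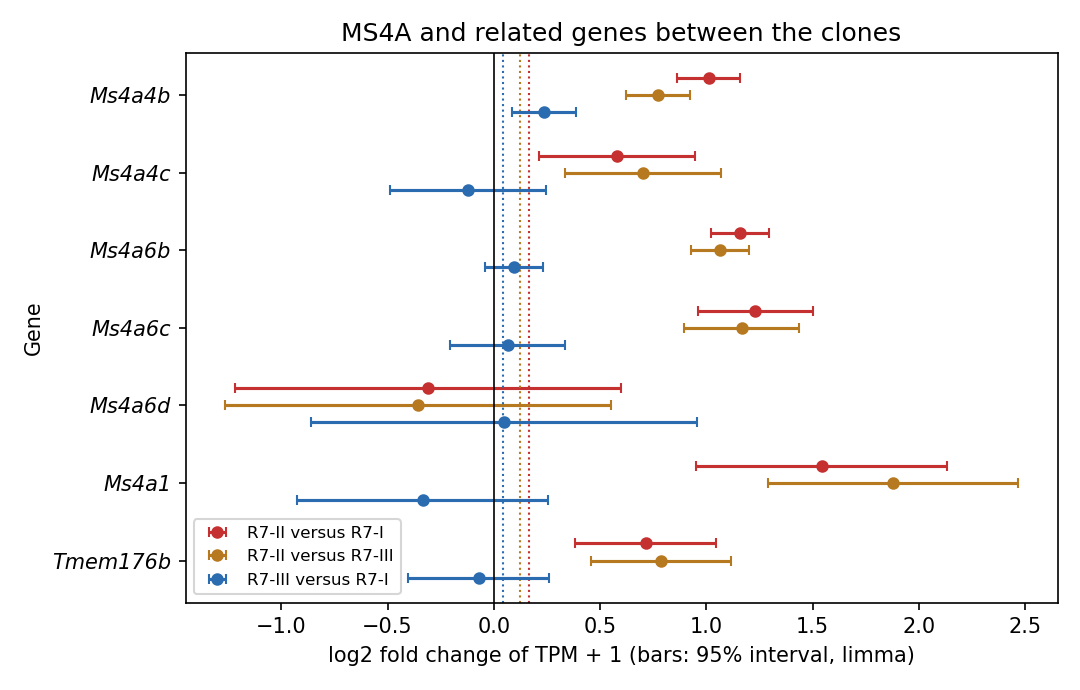
log2 differences of TPM + 1 for the members and for the related genes tested, with 95% intervals from limma (3 libraries per clone). Colours are comparisons and dotted lines are the median of all genes in each, at 0.17, 0.12 and 0.04. For Ms4a4b and Ms4a6b both R7-II intervals lie wholly to the right of these medians, and the intervals of Ms4a6d span 0.

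The balance among the members was compared within libraries. The ratio of Ms4a4b to Ms4a6b in TPM was 2.08 to 2.60 in R7-I, 1.95 to 2.16 in R7-II and 2.48 to 2.62 in R7-III. R7-II therefore overlapped R7-I and lay below R7-III. The ratio of Ms4a4b to Ms4a4c was 28.7 to 35.6, 34.1 to 46.0 and 33.8 to 46.3 in the same order, and the clones overlapped. The tests used the log2 ratio of TPM + 1, in which the pseudocount weighs on Ms4a4c at its low level. On that scale R7-II did not overlap R7-I for Ms4a4b over Ms4a4c (0.43) or for Ms4a4c over Ms4a6b (-0.58), each with an exact permutation p = 0.1. In R7-II against both other clones the log2 ratio differed by -0.22 for Ms4a4b over Ms4a6b (exact permutation test, p = 0.0714), by 0.25 for Ms4a4b over Ms4a4c (p = 0.119) and by -0.47 for Ms4a4c over Ms4a6b (p = 0.0714). The lowest adjusted p over the 12 such tests was 0.238, but 0.0952 is the smallest that this design can give, so these tests could not pass and say nothing of equal change.

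Together the members made up 94.5% to 96.1% of the summed TPM of the 16 Ms4a genes in the table. That sum was 435 to 470 TPM in R7-I, 839 to 1011 in R7-II and 496 to 536 in R7-III. Ms4a4b alone was 64.9% of it in R7-I, 63.2% in R7-II and 67.5% in R7-III on average, and Ms4a6b 28.3%, 30.6% and 26.6%. Ms4a4c contributed 2.04%, 1.54% and 1.65%. Of the 16 genes 10 did not pass the filter, with a highest level of 0.71 TPM, and 5 of these were listed at 0 in every library.

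Outside the members, the list of related genes held 17 names, of which 15 were in the table and 4 were tested. Tmem176b passed the filter only through R7-II. Of the other 3 there were 2 higher and 1 not called in both R7-II comparisons, beside 40.6% and 35.6% of all genes that were higher. None of the 4 passed for R7-III against R7-I in limma, beside 8.41% of all genes. None had an unadjusted p under 0.05 there either, beside 32.3%. Ms4a6c, the nearest relative of Ms4a6b, stood at 11.8 ± 1.84 TPM in R7-I, 28.9 ± 4.02 in R7-II and 12.3 ± 1.51 in R7-III. Its log2 differences of 1.23 and 1.17 (limma adjusted p = 8.94e-06 and 1.41e-05) were of the size of those of Ms4a6b. Ms4a1, which encodes CD20, was scarce, at 1.37 ± 0.644, 6.09 ± 2.59 and 0.843 ± 0.185 TPM, and was higher in R7-II by 1.54 and 1.88 (adjusted p = 4.29e-04 and 1.17e-04). Tmem176b, a membrane protein related to the family, was at 0.20, 0.96 and 0.133 TPM on average and differed by 0.71 and 0.79, calls that were lost under quantile normalization (limma adjusted p = 0.0358 and 0.0140), and 7 of its 9 libraries were below 1 TPM. Ms4a6d was at 7.95 ± 1.02, 7.50 ± 4.83 and 8.22 ± 0.53 TPM and did not pass. In R7-II it was at 9.83, 1.94 and 10.72 TPM, so that replicate 2 alone set the sign: the log2 differences of -0.31 and -0.36 became 0.34 and 0.29 without that library (limma adjusted p = 0.0153 and 0.0308).

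Markers of B cells and myeloid cells and genes of MHC class II were also higher in R7-II. The summed B cell markers were at 8.69 to 16.1 TPM in R7-I, at 74.7, 35.7 and 57.0 TPM in R7-II replicates 1, 2 and 3, and at 5.18 to 8.12 TPM in R7-III. Of 10 B cell genes 8 were tested, 3 of which (Blk, Fcer2a and Cd22) passed the filter only through R7-II and so had to be high there. The other 5 were higher in R7-II against each other clone, as were 6 of 6 MHC class II genes, with Ciita set aside for the same reason. Of all genes tested, 40.6% were higher than in R7-I and 35.6% higher than in R7-III. The sums of the MHC class II list were 32.4 to 50.3, 112.5 to 183.1 and 24.3 to 28.1 TPM. Myeloid markers summed to 32.7 to 40.1 TPM in R7-I, to 83.7, 58.4 and 133 TPM in R7-II, and to 29.6 to 33.5 TPM in R7-III. Of 11 myeloid genes tested 6 passed the filter only through R7-II, and of the other 5 there were 3 higher than in R7-I and 5 higher than in R7-III. Within R7-II, replicate 2 was the lowest and replicate 3 the highest for the myeloid sum, and the same was so for Ms4a4b, Ms4a4c and Ms4a6b. Summed T cell markers had the same order over a narrower range, at 2945.8, 2888.1 and 3004.9 TPM in replicates 1, 2 and 3. Of those markers, Thy1 (275, 203 and 313 TPM) and Cd8b1 followed it. Cd3e, Cd3d, Cd3g and Lck were instead lowest in replicate 3, Cd8a was lowest in replicate 1, and Cd2 was highest in replicate 1. The B cell sum was highest in replicate 1. Lyz2, the lysozyme of macrophages and granulocytes, was at 0.45 ± 0.20 TPM in R7-I, 32.9 ± 21.9 in R7-II and 1.89 ± 0.473 in R7-III. The study reports a purity of its sorted samples that was high but not complete. The part of B cells and myeloid cells in the levels of the members was not tested.

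The labelled cell type was checked against T cell markers, which were present at high levels in every library. These 8 genes summed to 2036 to 2114 TPM in R7-I, 2888 to 3005 in R7-II and 2095 to 2238 in R7-III. Against R7-I 6 of 8 were higher in R7-II and against R7-III 7 of 8 were, beside 40.6% and 35.6% of all genes. Their medians were 0.48 and 0.45. Cd8b1, a chain of the CD8 coreceptor, was at 320 ± 8.14 TPM in R7-I and at 519 ± 31.9 in R7-II. The differences of Ms4a4b and Ms4a6b exceeded the T cell marker median in both comparisons, and no test compared them. In bulk samples like these, fewer cells of a type and less RNA per cell cannot be told apart. Summed markers of CD4 and regulatory T cells were 3.36 to 8.01 TPM over all libraries. No NK cell marker passed the filter, and Klra8 and Klra4 were listed at 0 throughout.

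**Figure D3:**
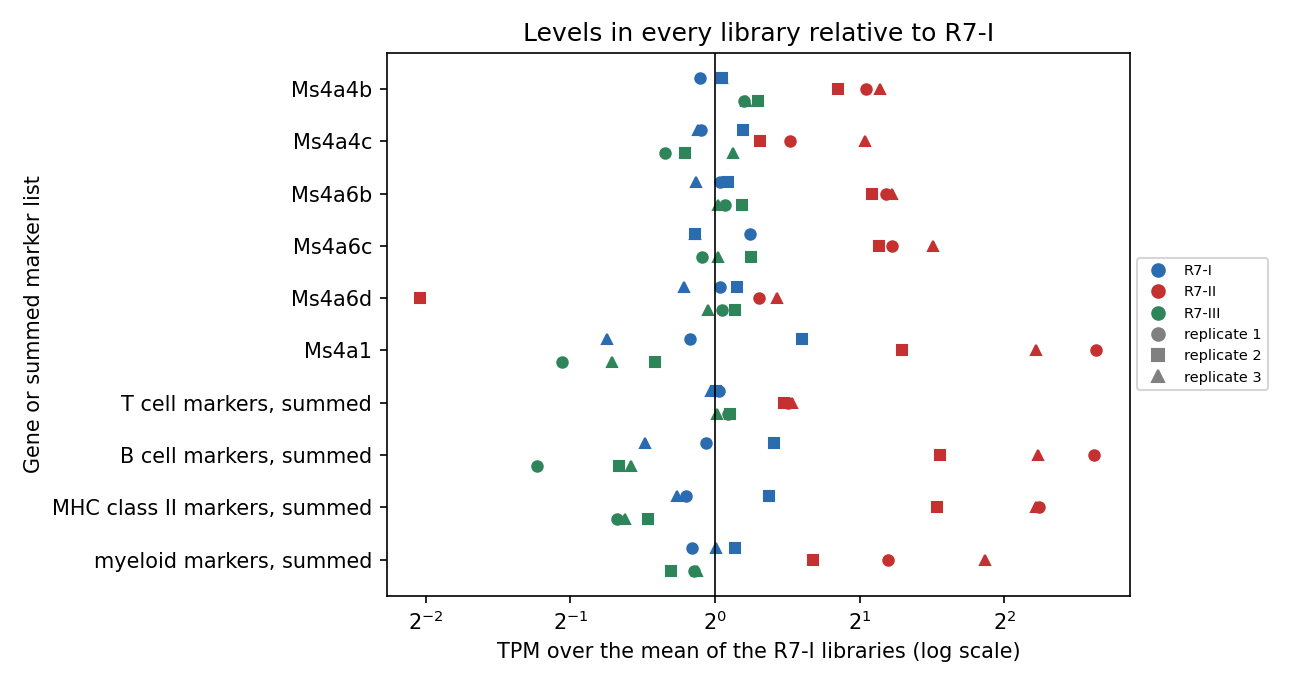
Level of each gene or summed marker list in the 9 libraries, as TPM over the mean of the R7-I libraries (log axis), with clones by colour and replicates by symbol. R7-II is at 1.80 to 2.20 for Ms4a4b, 1.24 to 2.05 for Ms4a4c and 2.12 to 2.34 for Ms4a6b, beside 1.39 to 1.45 for T cell, 2.94 to 6.16 for B cell and 1.60 to 3.64 for myeloid markers.

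The genes around the members were examined to see whether the difference was one of the whole region. Within 1 Mb on either side 73 other genes were in the table and 27 were tested. Against R7-I 10 of them were higher and 5 lower in R7-II, beside 40.6% and 15.5% of all genes. Against R7-III 8 were higher and 7 lower, beside 35.6% and 18.0%. For R7-III against R7-I none of the 27 passed in limma, beside 8.41% of all genes, and 7 had an unadjusted p under 0.05, beside 32.3%. The median log2 differences of these neighbours in the R7-II comparisons were 0.07 and 0.07, below the medians of all genes. With the MS4A genes left out, 24 remained, with 8 higher and 5 lower and then 6 higher and 7 lower. Gm8369, which lies between Ms4a4b and Ms4a6b and was singled out after its values were seen, was at 3.52, 6.72 and 3.56 TPM on average in R7-I, in R7-II and in R7-III, and was higher in R7-II by 0.79 and 0.76 on the log2 scale. AW112010, also singled out afterwards, was at 23.4, 53.0 and 18.9 TPM and was higher by 1.13 and 1.42.

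**Figure D4:**
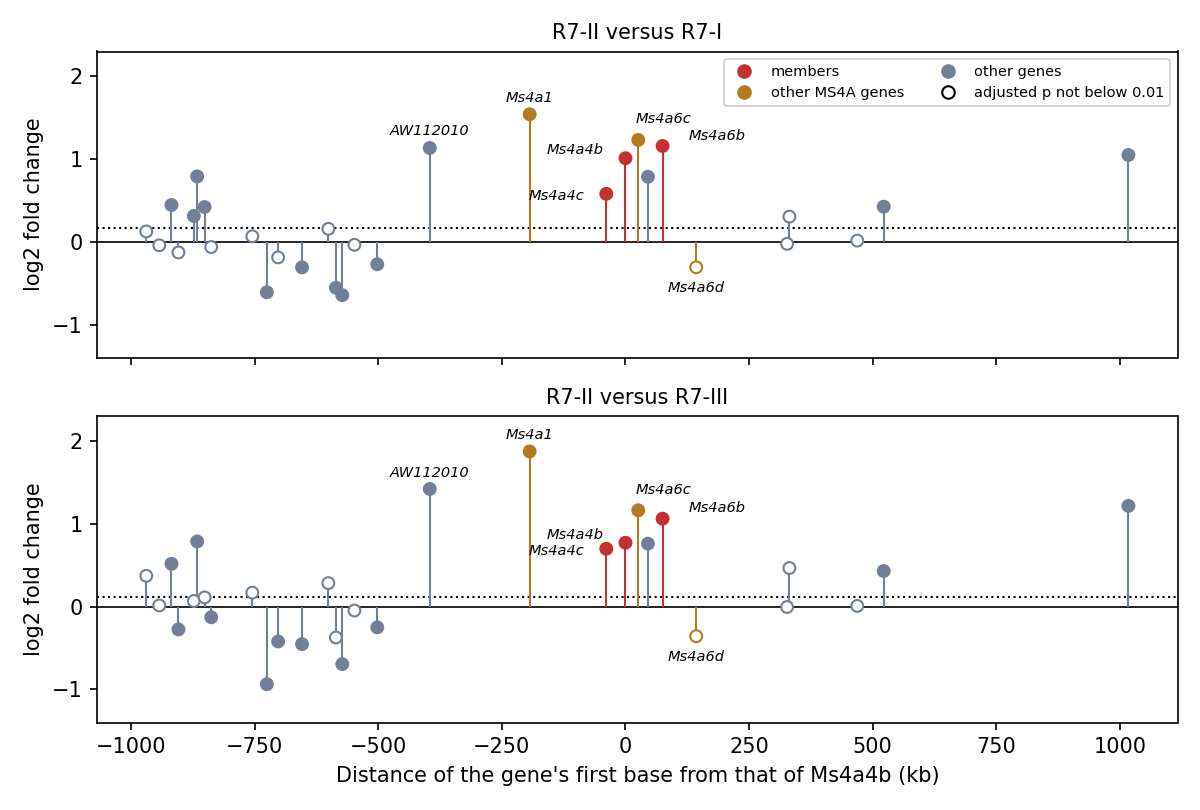
log2 difference of every tested gene within 1 Mb of the members against its distance from Ms4a4b (kb), for R7-II against R7-I and against R7-III. Filled points passed the adjusted p of 0.01 in limma, open points did not, and the dotted line is the median of all genes. Genes around the members differ in both directions, as do all genes tested, with a median of 0.07 in each comparison, and Ms4a1 lies above all 3 members in both.

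The profiles most like each member were taken over the 9 libraries, as a description without a test, since the libraries fall into clones and R7-II stands apart from the other 6. For Ms4a4b the highest Pearson r of log2(TPM + 1) belonged to Cog1 (0.997), Cnp (0.997), Plcg1 (0.996), Ldb1 (0.995) and Rab4b (0.995). Plcg1, which encodes a phospholipase of receptor signalling, stood at 27.1, 50.3 and 31.1 TPM in R7-I, R7-II and R7-III. For Ms4a6b they were Fam49a (0.996), Itpr3 (0.994), Traf3ip3 (0.994), Slfn1 (0.993) and Gm8979 (0.993). Traf3ip3 had 38.0, 110.0 and 38.1 TPM in the same order. Such values were common: 25.2% of the other 11329 genes had an r above 0.9 with Ms4a4b, and 24.6% with Ms4a6b. With each clone's mean taken out, r of the named genes was 0.867 to 0.953 for Ms4a4b and 0.692 to 0.844 for Ms4a6b. These genes were picked by r over the same libraries, so high values here are partly given by the choice.

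For Ms4a4c, 1.55% of the other genes reached an r above 0.9, and the nearest were Themis2 (0.976), Ccl6 (0.973), Il4i1 (0.960), Fcgr2b (0.960) and Bcl9 (0.958). Fcgr2b encodes an inhibitory Fc receptor of B and myeloid cells and Ccl6 a chemokine of myeloid cells. They were scarce, with 0.31, 2.35 and 0.26 TPM for Fcgr2b and 0.487, 2.25 and 0.257 TPM for Ccl6 in R7-I, R7-II and R7-III. Fcgr2b, Ccl6, Themis2 and Il4i1 passed the filter only through R7-II and so had to be high there. With clone means taken out, r of the 5 genes with Ms4a4c was 0.870 to 0.937, which is again partly given by the choice of genes. Among the members r was 0.971 for Ms4a4b with Ms4a6b, 0.823 for Ms4a4b with Ms4a4c and 0.827 for Ms4a4c with Ms4a6b.

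The genes of the GITR axis were listed because MS4A4B associates with this receptor. Of 7 genes 6 were tested. Against R7-I 3 were higher and 1 lower in R7-II, beside 40.6% and 15.5% of all genes. Against R7-III 2 were higher and 1 lower, beside 35.6% and 18.0%. The medians of 0.24 and 0.13 were close to those of all genes. Tnfrsf18, which encodes GITR itself, was at 87.3 ± 12.1 TPM in R7-I, 152 ± 2.38 in R7-II and 95.3 ± 5.86 in R7-III, higher in R7-II by 0.80 and 0.67 (limma adjusted p = 9.23e-06 and 3.55e-05). Traf1, an adaptor of TNF receptors, was the most abundant at 158 ± 8.06, 153 ± 7.76 and 146 ± 5.45 TPM and did not pass (-0.048 and 0.070), although with median-of-ratios scaling its difference from R7-I was -0.22 (limma adjusted p = 0.00207). Siva1, a death-domain adaptor that binds such receptors, was lower in R7-II, with 86.7 ± 2.39, 68.6 ± 7.43 and 111 ± 5.45 TPM. It was also the 1 gene of the list that differed between R7-III and R7-I, where it was higher by 0.36 (limma adjusted p = 0.00566). In that comparison 8.41% of all genes passed.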

How the data were processed

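Poly(A) RNA of 9 libraries, 3 per clone, was sequenced, and the authors aligned the reads to mm10 and estimated levels of RefSeq genes with RSEM 1.2.11. The deposited values are TPM, 1 row per gene symbol. Reads were not strand-specific, so a gene and an antisense partner cannot be told apart. The depth of a library cannot be read from TPM, and no counting error is given. The authors' DESeq2 1.8.1 test on counts was not used here. From the deposited TPM, log2(TPM + 1) was tested for 11330 genes with a maximum TPM above 1, with limma 3.58.1 (trend, all 9 libraries in 1 fit) in R 4.3.3, Benjamini-Hochberg adjustment over all genes and a threshold of 0.01. Exact two-sided permutation tests used scipy 1.17.1. The fit was tested on simulated data. The p-values measure the spread between samples labelled as biological replicates. Each library had 13738 to 14434 genes above 0, and replicates of a clone correlated at 0.992 to 0.997.

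The members and lists were chosen with earlier results of these data known. Named were the members, the related genes tested, the 5 most alike per member, and up to 4 of the most abundant of each list. Siva1, Lyz2, the T cell markers named singly and genes set aside for the filter were named after their values were seen. Positions and promoters are from RefSeq (GRCm38.p6, the build of mm10), transcripts from GENCODE M21, and alignments from Biopython 1.88. Proteins were not analysed here, and a gene of the lists is not reported here.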

Additional observations from a re-analysis of the deposited data

How the results depend on the processing

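Under 19 alternatives (pseudocount, filter, scaling, moderation, libraries, replicate block, threshold, and leaving out each library) the calls of Ms4a4b and Ms4a6b in both R7-II comparisons were kept in 19 of 19. The difference of Ms4a4c from R7-I lost its call with a pseudocount of 5 (0.44), without a filter (0.58), with median-of-ratios scaling (0.42), quantile normalization (0.29), no trend (0.58) and only the 6 libraries compared (0.58). That from R7-III lost it without a filter (0.70), with median-of-ratios scaling (0.58), quantile normalization (0.53) and 6 libraries (0.70). The cause was not tested. With 1 library left out, Ms4a4c ranged from 0.39 to 0.72 against R7-I (called in 2 of 9) and from 0.51 to 0.85 against R7-III (7 of 9).

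For R7-III against R7-I, Ms4a4b (0.24) passed at an adjusted p of 0.05, which took the members called from 0 to 1 and the genes called from 953 to 2142. Leaving out 1 library gave 0.19 to 0.26 for Ms4a4b, 0 to 1 members, and 422 to 1076 genes: 422, 574 and 619 without R7-I replicates 1, 2 and 3, and 487, 462 and 523 without those of R7-III. In the R7-II comparisons these ranges were 5416 to 6353 genes against R7-I and 5106 to 6105 against R7-III, and 2 to 3 members in each. The log2 ratio of Ms4a4c over Ms4a6b was -0.60 with a pseudocount of 5 (exact permutation test, p = 0.0238), with -0.63 to -0.37 over libraries left out. That of Ms4a4b over Ms4a6b was -0.26 without R7-I replicate 1 (exact p = 0.0357), with a range of -0.26 to -0.18, and that of Ms4a4b over Ms4a4c ranged from 0.18 to 0.38.

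Whether the replicate numbers of the labels pair the samples could not be settled, since the ranges overlap. Deviations from clone means correlated at -0.04 to 0.09 (median 0.03) for same-numbered libraries of different clones. For libraries with different numbers they correlated at -0.09 to 0.06 (median -0.01). With the replicate number as a block, 6015, 5786 and 733 genes were called and no call of a member changed. Of the 18 other genes followed, 38 of 682 values in the R7-II comparisons changed side or sign. Reversed signs were those of Traf1 against R7-III (-0.056, median-of-ratios scaling), of Ifi27l2a against R7-I (0.024 without R7-I replicate 2 and 0.33 without R7-II replicate 1, range -0.42 to 0.33) and of Ms4a6d (0.34 and 0.29 without R7-II replicate 2, ranges -0.66 to 0.34 and -0.71 to 0.29). Of the 5 genes most like each member, 1, 1 and 0 (Ms4a4b, Ms4a4c, Ms4a6b) stayed under Spearman correlation and 0 for each under deviations from clone means. TPM does not give the reads behind a value in each library, which limits genes of a few TPM such as Ms4a4c and Ms4a1.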

Other observations

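Lists of Th1, naive T cell, cell division and interferon response genes were followed in the same libraries. Of 8 Th1 genes tested, R7-II had 5 lower against R7-I and 5 lower against R7-III (medians -0.95 and -0.96). Of all genes 15.5% and 18.0% were lower in these comparisons. Ifng, the interferon gamma gene, was at 149 ± 14.4 TPM in R7-I, 36.6 ± 11.2 in R7-II and 122 ± 5.39 in R7-III (limma log2 differences -2.04 and -1.76, adjusted p = 2.85e-06 and 8.37e-06). Stat4, a transducer of IL-12 signals, was lower by 0.73 and 0.58. Ms4a4b, described from Th1 cells, was thus high in the clone in which most of the Th1 list was low.

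Genes of naive and resting T cells were higher in R7-II for 11 of 13 in both comparisons, beside 40.6% and 35.6% of all genes. Their medians were 0.87 and 0.82. Tcf7, a transcription factor of naive and memory T cells, was at 180 ± 15.9, 481 ± 60.5 and 183 ± 2.88 TPM in R7-I, R7-II and R7-III. Ccr7, the lymph node homing receptor, was higher by 0.55 and 0.78. Slfn2, needed for T cell quiescence, was the 1 lower gene against R7-I (-0.21) and did not pass against R7-III (-0.14). Of 12 cell division genes 11 were lower in R7-II in both comparisons, with medians of -0.69 and -1.69, and 1 was higher. Of all genes 15.5% and 18.0% were lower. Pcna was at 766 ± 24.8, 601 ± 11.2 and 904 ± 17.8 TPM, and Mcm5 at 345 ± 15.6, 216 ± 19.5 and 436 ± 15.9 TPM. For R7-III against R7-I 9 of these 12 were higher (median 0.54), beside 6.96% of all genes. None of the 3 members passed in limma in that comparison.

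The interferon response list was mixed. Of 14 genes tested 4 were higher and 2 lower than in R7-I, and 3 were higher and 1 lower than in R7-III. Among all genes 40.6% were higher and 15.5% lower than in R7-I, and 35.6% were higher and 18.0% lower than in R7-III. Its summed level in R7-II replicates 1, 2 and 3 was 322.8, 542.1 and 742.2 TPM. The members were lowest in replicate 2, and a link between these genes and the members was not tested. Bst2, which encodes tetherin, was at 193 ± 17.0, 125 ± 37.7 and 206 ± 13.8 TPM (-0.67 and -0.77), and its call against R7-I held in 9 of 19 alternatives. Ifi27l2a was at 152 ± 19.9, 157 ± 76.3 and 218 ± 4.88 TPM and did not pass, but without R7-II replicate 3 it was lower than in R7-III (-0.94, limma adjusted p = 0.00302).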
